A study of Culex pipiens pallens and Culex quinquefasciatus with 12 samples.

Results

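The antioxidant and peroxidase genes of house mosquito larvae are described here: the enzymes and carrier proteins that remove superoxide and peroxides, and the heme peroxidases that use peroxide. A gene model belonged to the set when the description deposited with it named a peroxiredoxin, thioredoxin, superoxide dismutase, catalase, glutaredoxin, peroxidase or peroxidasin, and no transferase. This gave 42 of 17757 gene models: 11 superoxide dismutases, 1 catalase, 2 glutathione peroxidases, 6 peroxiredoxins, 4 thioredoxins or proteins with a thioredoxin domain, 1 thioredoxin reductase, 7 glutaredoxins and 10 heme peroxidases. Expression was measured by RNA-seq in 7 libraries of Culex pipiens pallens, an East Asian house mosquito of temperate regions, and 5 of Culex pipiens quinquefasciatus, the southern house mosquito. Each library was built on poly(A) RNA from 30 pooled whole larvae. The labels give no strain, age, larval stage, sex or insecticide treatment for any pool. The title speaks of differing resistance, but no library carries a level of it, so subspecies was the only factor compared. Whether the pools stem from different strains or cultures is not stated, so p-values reflect only the scatter among these samples, which may be technical.

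Superoxide dismutases turn superoxide into hydrogen peroxide, and catalase, glutathione peroxidases and peroxiredoxins remove the peroxide. Thioredoxin and glutaredoxin hand electrons on to such enzymes; in Drosophila, which has no glutathione reductase, thioredoxin and its reductase also keep glutathione reduced. Heme peroxidases also use hydrogen peroxide as a substrate. Known examples are the chorion peroxidase of Aedes aegypti, which cross-links eggshell proteins, and enzymes paired with dual oxidase at insect surfaces. The descriptions follow similarity to other species, and "chorion" or "thyroid" in a name here says nothing about the tissue of expression.

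The libraries held 3.88 to 4.86 M unique reads in pallens and 4.41 to 5.18 M in quinquefasciatus. Members took between 0.274% of these reads, in pallens 6, and 0.578%, in quinquefasciatus 3. The larval storage proteins, the hexamerins and arylphorins of the fat body and blood, were abundant in all pools, with a summed 32416 to 170834 CPM (reads scaled to library size, with TMM) in pallens and 89539.7 to 162283 CPM in quinquefasciatus. The 9 yolk and eggshell genes summed to 32.4 to 81.2 CPM in pallens and 45.2 to 72.7 CPM in quinquefasciatus. The pools differed in a list of 70 tested cuticle protein genes, whose mean log2(CPM + 1) ran from 3.10 to 6.24 in pallens and from 2.67 to 5.23 in quinquefasciatus. It was highest in pallens 2 (6.24) and pallens 5 (6.13), followed by pallens 3 (5.38) and quinquefasciatus 2 (5.23). The mean of the 12 storage protein genes was lowest in pallens 7 (8.05), pallens 6 (8.45) and quinquefasciatus 2 (9.64), against 10.40 to 11.51 in the other pools. None of the genes of either list was called between the subspecies.

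Of the 42 members, 29 had enough reads to be tested and 13 did not. Catalase had the highest level per length, 578 ± 96.3 RPKM in pallens and 651 ± 114 RPKM in quinquefasciatus (SD, n = 7 and 5), and took 28.1% of all reads on members. It was followed by a superoxide dismutase with 336 ± 28.4 RPKM in pallens and 346 ± 40.1 RPKM in quinquefasciatus. After these came peroxiredoxin 5 with 180.0 ± 27.0 RPKM in pallens and 209 ± 54.1 RPKM in quinquefasciatus, and a peroxiredoxin 6 with 113 ± 38.7 RPKM in pallens and 254 ± 113 RPKM in quinquefasciatus. Next in order was an oxidase/peroxidase with 141 ± 71.6 RPKM in pallens and 179 ± 183 RPKM in quinquefasciatus. Peroxiredoxin 6 and the oxidase/peroxidase did not differ in level beyond their spread in either subspecies. The 8 tested heme peroxidases ran from 4.30 to 157 RPKM as means over the 12 pools, against 608 RPKM for catalase. Below that oxidase/peroxidase came the chorion peroxidase CPIJ018105, with 124 ± 160 RPKM in pallens and 37.5 ± 31.0 RPKM in quinquefasciatus. The lowest mean of the tested heme peroxidases over the 12 pools, 4.30 RPKM, was that of the thyroid peroxidase-like gene.

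**Figure D1:**
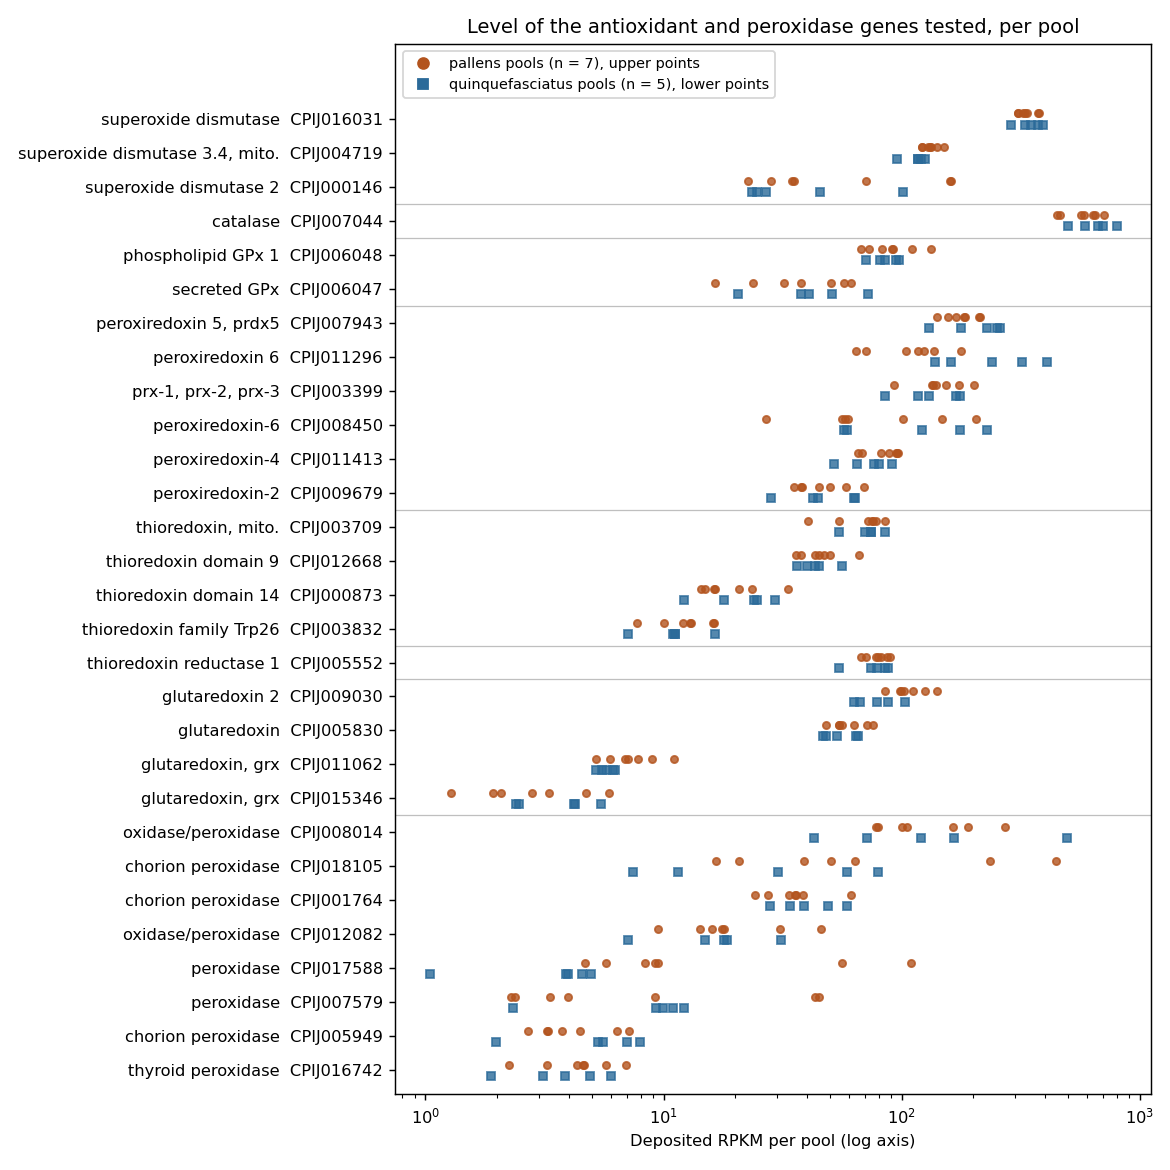
Deposited RPKM of the 29 members tested, on a log axis, with 1 point per pool; orange circles are the 7 pallens pools and blue squares, set below them, the 5 quinquefasciatus pools. Lines divide the roles. Catalase stands at the top of the range, and the heme peroxidases at the bottom of the plot include those with the widest spread between pools.

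The comparison of pallens with quinquefasciatus larvae called none of the 29 members tested (edgeR quasi-likelihood test, Benjamini-Hochberg adjusted p under 0.05 over all 10617 genes tested), where 57 genes, or 0.537%, were called over the whole table. At an unadjusted p under 0.05 there were 3 members, a glutaredoxin and a peroxidase with higher values and a peroxiredoxin with lower values in pallens. That is 10.3% of the members tested, against 13% of all genes. In 0 of 29 members were the pallens and quinquefasciatus pools free of overlap, against 1.22% of all genes. Log2 changes, given throughout as pallens minus quinquefasciatus, were positive in 16 members and negative in 13, with a median of 0.02, which is also the median of all genes tested. Exceeding 1 in size were 3 of 29, or 10.3%, against 7.79% of all genes. In 19 of the 29 the 95% interval of the change lay within 1 log2 unit on either side of 0, and the others allow changes of more than 2-fold. DESeq2 called 2 members, where its share over all genes was 2.78%. None was called by limma-voom (0.867% of all genes), by limma on log2(RPKM + 1) (1.11%) or by limma on log2(RPKM + 0.1) (1.04%). Leaving out single libraries gave 9 to 229 calls over all genes, 229 (2.17%) without pallens 1 and 209 (1.93%) without quinquefasciatus 5, and 0 among the members each time. Without pallens 2 and pallens 5, a setting added after the data were seen, 3 genes (0.0292%) and 0 members were called. Whole larvae were sampled, so fewer cells of a type and less RNA per cell cannot be told apart.

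**Figure D2:**
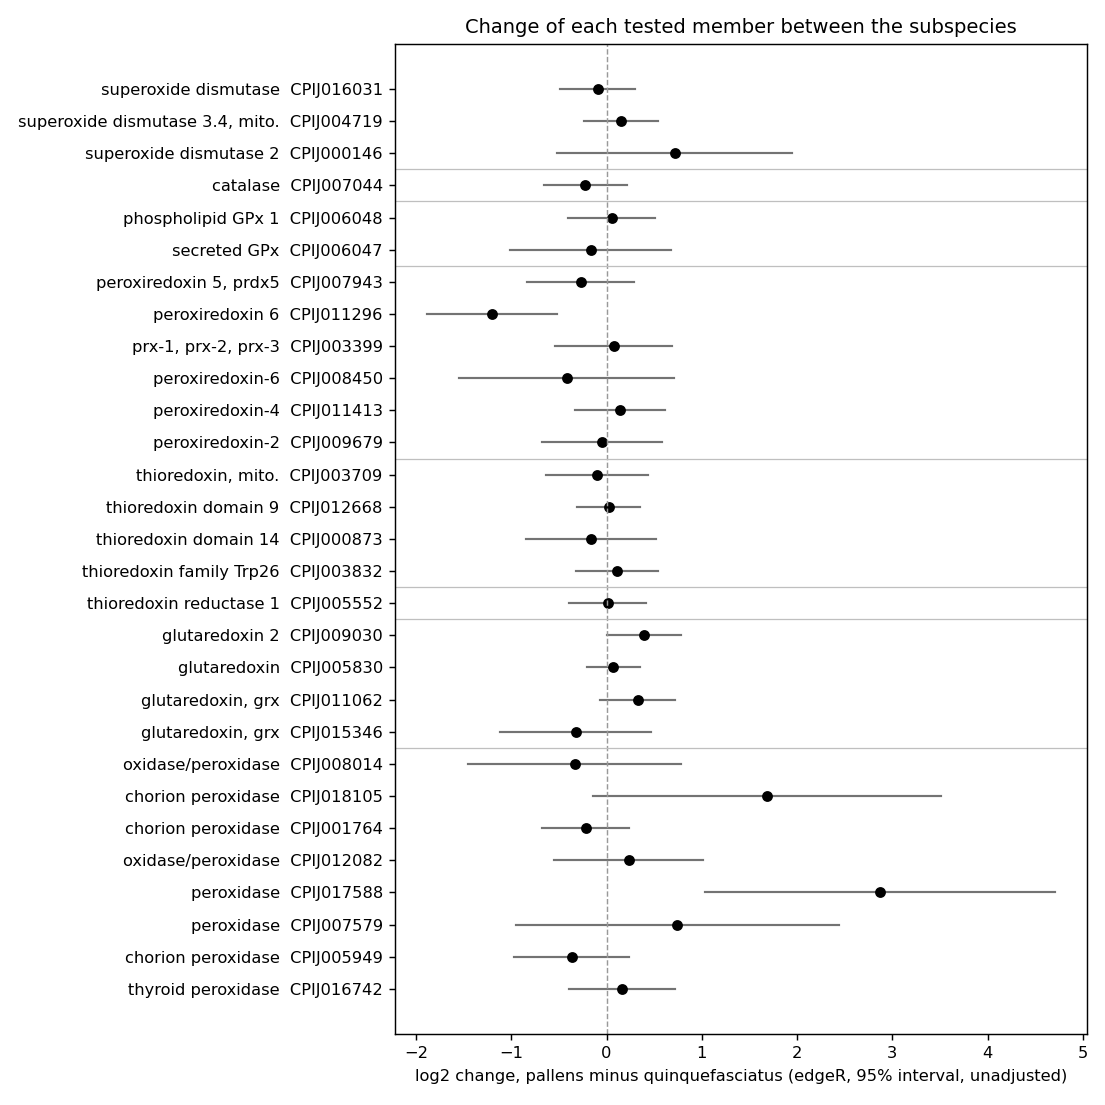
Log2 change of the 29 members tested, pallens minus quinquefasciatus, with its unadjusted 95% interval from edgeR; values right of the dashed line at 0 are higher in pallens. Only peroxiredoxin 6 (CPIJ011296) on the negative side and peroxidase CPIJ017588 and, at its margin, glutaredoxin 2 on the positive side have intervals clear of 0, and none passed the adjusted threshold.

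Of the 11 superoxide dismutase models 3 carried nearly all the reads, and none of the 3 was called. CPIJ016031-RA, described only as superoxide dismutase (scaffold supercont3.729, positions 219842 to 221362), was the most abundant. It ranged from 206 to 333 CPM with a median of 246 CPM in pallens, and had 243, 204, 276, 294 and 341 CPM in quinquefasciatus 1 to 5. The ranges of the subspecies nearly coincide, with a log2 change of -0.09 ± 0.18 (SE; adjusted p = 0.853). The mitochondrial superoxide dismutase CPIJ004719-RA, which acts where respiration releases superoxide, lay between 85.3 and 136 CPM in pallens and between 73.9 and 125 CPM in quinquefasciatus, with a log2 change of 0.15 ± 0.18 (adjusted p = 0.734).

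The third, superoxide dismutase 2 (CPIJ000146-RA), was uneven within both subspecies. It had 25.8, 112, 136, 18.6, 54.2, 25.6 and 23.2 CPM in pallens 1 to 7, against 34.1, 73.9, 17.04, 21.4 and 25.3 CPM in quinquefasciatus 1 to 5. The pools with the highest values, pallens 3, pallens 2, quinquefasciatus 2 and pallens 5, were the 4 with the highest cuticle list means. This match was picked after the values were seen, and its share over all genes was not counted. The log2 change of superoxide dismutase 2 was 0.71 ± 0.57 (adjusted p = 0.597). With the cuticle list mean as a covariate, a setting chosen after the data were seen, it was -0.15. The part of the cuticle list in these values was not tested.

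The other 8 superoxide dismutase models were close to unread. CPIJ003666-RA, described as mitochondrial, had the most, with 0 to 46 reads in pallens and 1 to 6 reads in quinquefasciatus, and its 46 reads were in pallens 7. The remaining 7 had at most 7 reads in any pallens pool and at most 16 in any quinquefasciatus pool. These 8 were chosen for mention after their values were seen. Only uniquely mapped reads were counted, so reads shared by near-identical copies would be missing from all of these models. A count of 0 allows up to 3 reads, or 0.617 to 0.772 CPM by library total in pallens and 0.579 to 0.681 CPM in quinquefasciatus, from counting error alone.

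Catalase (CPIJ007044-RA, supercont3.139, 262450 to 268562), which splits hydrogen peroxide without a partner, was covered by reads over a median of 99.3% of its length. It had 1318, 1080.4, 869, 1153, 958, 728 and 851 CPM in pallens 1 to 7, against 1119, 802, 1118, 1533 and 1224 CPM in quinquefasciatus 1 to 5. Pallens 6 and pallens 7 were the lowest of their subspecies and quinquefasciatus 2 the lowest of its own. Its log2 change of -0.22 ± 0.20 (adjusted p = 0.650) had a 95% interval from -0.66 to 0.21.

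The 2 glutathione peroxidase models lie 3.6 kb apart on supercont3.106. Phospholipid hydroperoxide glutathione peroxidase 1 (CPIJ006048-RA), whose relatives reduce lipid peroxides in membranes, lay between 59.9 and 131 CPM in pallens and between 69.0 and 118 CPM in quinquefasciatus. Its neighbour, a putative secreted glutathione peroxidase (CPIJ006047-RA), had 33.2, 14.04, 20.3, 31.9, 24.6, 11.1 and 6.90 CPM in pallens 1 to 7, against 34.5, 9.53, 18.7, 28.1 and 22.6 CPM in quinquefasciatus 1 to 5. The pools with little storage protein, pallens 6, pallens 7 and quinquefasciatus 2, had its lowest values, and the first gene did not share this order. The log2 changes were 0.05 ± 0.21 (adjusted p = 0.936) for the phospholipid enzyme and -0.16 ± 0.39 (adjusted p = 0.881) for the secreted enzyme.

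All 6 peroxiredoxin models were tested, and they held the member with the smallest p. Peroxiredoxin 6 enzymes carry a single catalytic cysteine and, in mammals, are reduced by glutathione. The model CPIJ011296-RA (supercont3.321, 50048 to 62249) had 114, 129.5, 123, 55.9, 100.6, 54.9 and 73.1 CPM in pallens 1 to 7, against 128.7, 186, 313, 126.5 and 318 CPM in quinquefasciatus 1 to 5. Quinquefasciatus 4 and quinquefasciatus 1 lay just below the highest pallens pool, pallens 2, and this was the whole of the overlap between the groups. The mean was 93.0 ± 31.5 CPM over pallens pools, against 214 ± 95.3 CPM over quinquefasciatus pools (SD, n = 7 and 5). The log2 change was -1.20 ± 0.32 (unadjusted p = 0.00206, adjusted p = 0.119), with an unadjusted 95% interval from -1.88 to -0.52. DESeq2 gave it an adjusted p of 0.0201, and over all alternatives its change ran from -1.35 to -1.02 with adjusted p from 0.0201 to 0.244.

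A second peroxiredoxin-6 model (CPIJ008450-RA, supercont3.188) did not share this pattern. It had 96.9, 43.0, 131, 176, 46.4, 43.1 and 18.5 CPM in pallens 1 to 7, against 95.7, 43.6, 173, 159.5 and 57.9 CPM in quinquefasciatus 1 to 5. Both subspecies held pools with low and with high values, and the log2 change was -0.42 ± 0.52 (adjusted p = 0.750). Its spread within a subspecies was above that of 90.8% of genes of like level. The difference between the 2 models was not tested.

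Peroxiredoxin 5 (CPIJ007943-RA), known in other animals from mitochondria and peroxisomes, had a median of 167 CPM in pallens, from 123 to 234, and 206, 113, 153, 259 and 289.8 CPM in quinquefasciatus 1 to 5. Pallens 6, pallens 7 and quinquefasciatus 2 had its 3 lowest values, and the log2 change was -0.27 ± 0.26 (adjusted p = 0.663). The model named prx-1, prx-2, prx-3 (CPIJ003399-RA), a group reduced by thioredoxin, lay between 88.1 and 238 CPM in pallens and between 80.3 and 213 CPM in quinquefasciatus, with a log2 change of 0.07 ± 0.29 (adjusted p = 0.936). Peroxiredoxin-4 (CPIJ011413-RA), an enzyme of the endoplasmic reticulum in mammals, and peroxiredoxin-2 (CPIJ009679-RA) had log2 changes of 0.14 ± 0.22 and -0.05 ± 0.29 (adjusted p = 0.805 and 0.964). Both were outside the rule for named genes and are given to complete the role.

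Thioredoxin reductase 1 (CPIJ005552-RA), which recharges thioredoxin with electrons from NADPH, had a mean of 127 ± 20.9 CPM in pallens pools, against 126 ± 25.1 CPM in quinquefasciatus pools. Its log2 change was 0.01 ± 0.19 (adjusted p = 0.989), and quinquefasciatus 2 stood apart with 82.4 CPM against 131 to 144 CPM in the other quinquefasciatus pools. Mitochondrial thioredoxin (CPIJ003709-RA) had a median of 29.4 CPM in pallens, from 14.2 to 41.5, and 28.2, 21.2, 28.5, 34.3 and 42.6 CPM in quinquefasciatus 1 to 5, with a log2 change of -0.10 ± 0.25 (adjusted p = 0.885). The other 3 models contain a thioredoxin domain and are not themselves peroxide-removing enzymes as far as their names say. Thioredoxin domain-containing protein 9 (CPIJ012668-RA), whose human relative binds a chaperonin, was even, between 25.7 and 38.4 CPM in pallens and 24.2 and 35.5 CPM in quinquefasciatus. Thioredoxin family Trp26 (CPIJ003832-RA) and thioredoxin domain containing 14 (CPIJ000873-RA) had log2 changes of 0.11 ± 0.20 and -0.16 ± 0.32 (adjusted p = 0.834 and 0.852).

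Of 7 glutaredoxin models, small proteins that use glutathione to reduce disulfides, 4 were tested. Glutaredoxin 2 (CPIJ009030-RA) ranged from 45.9 to 68.7 CPM with a median of 58.7 CPM in pallens, and had 41.8, 32.2, 52.6, 40.7 and 58.2 CPM in quinquefasciatus 1 to 5. Quinquefasciatus 3 and quinquefasciatus 5 lay inside the pallens range. Its change was 0.39 ± 0.18 on the log2 scale (unadjusted p = 0.0495, adjusted p = 0.384). The glutaredoxin CPIJ005830-RA was among the most even genes of the table, with 34.2 to 43.8 CPM in pallens and 32.6 to 40.5 CPM in quinquefasciatus, and its spread exceeded that of only 0.943% of genes of like level. It overlaps 2 other models on the opposite strand, and the libraries do not record strand, so its reads cannot be told apart from theirs. The models named grx were low: CPIJ011062-RA had a mean of 4.68 ± 0.79 CPM in pallens, against 3.73 ± 0.31 CPM in quinquefasciatus, and CPIJ015346-RA of 1.96 ± 0.93 CPM in pallens, against 2.50 ± 1.06 CPM in quinquefasciatus. Neither was called, with log2 changes of 0.33 ± 0.18 (adjusted p = 0.454) and -0.32 ± 0.37 (adjusted p = 0.719).

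In 6 of the 29 members tested the 3 lowest values of the 12 pools lay in pallens 6, pallens 7 and quinquefasciatus 2, the pools lowest in storage proteins. These were catalase, peroxiredoxin 5, peroxiredoxin-2, mitochondrial thioredoxin, the secreted glutathione peroxidase and thioredoxin domain containing 14, all of them outside the heme peroxidases. That is 20.7% of members, against 3.71% of all genes tested and 7 of the 12 storage protein genes. Of 34 tested redox partners, a list of related genes described at the end, 5 (14.7%) had their 3 lowest values in the same pools. The count depends on the scaling: 7 of 29 with RLE size factors (4.25% of all genes), 5 with upper quartile scaling (4%) and 4 by library totals alone (1.8%), where catalase, peroxiredoxin-2 and thioredoxin domain containing 14 are no longer among them and the second peroxiredoxin-6 model is. Pools were ordered by the storage list after the data were seen, and the shares are descriptions without a test. The part of the storage list in these values was not tested.

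**Figure D3:**
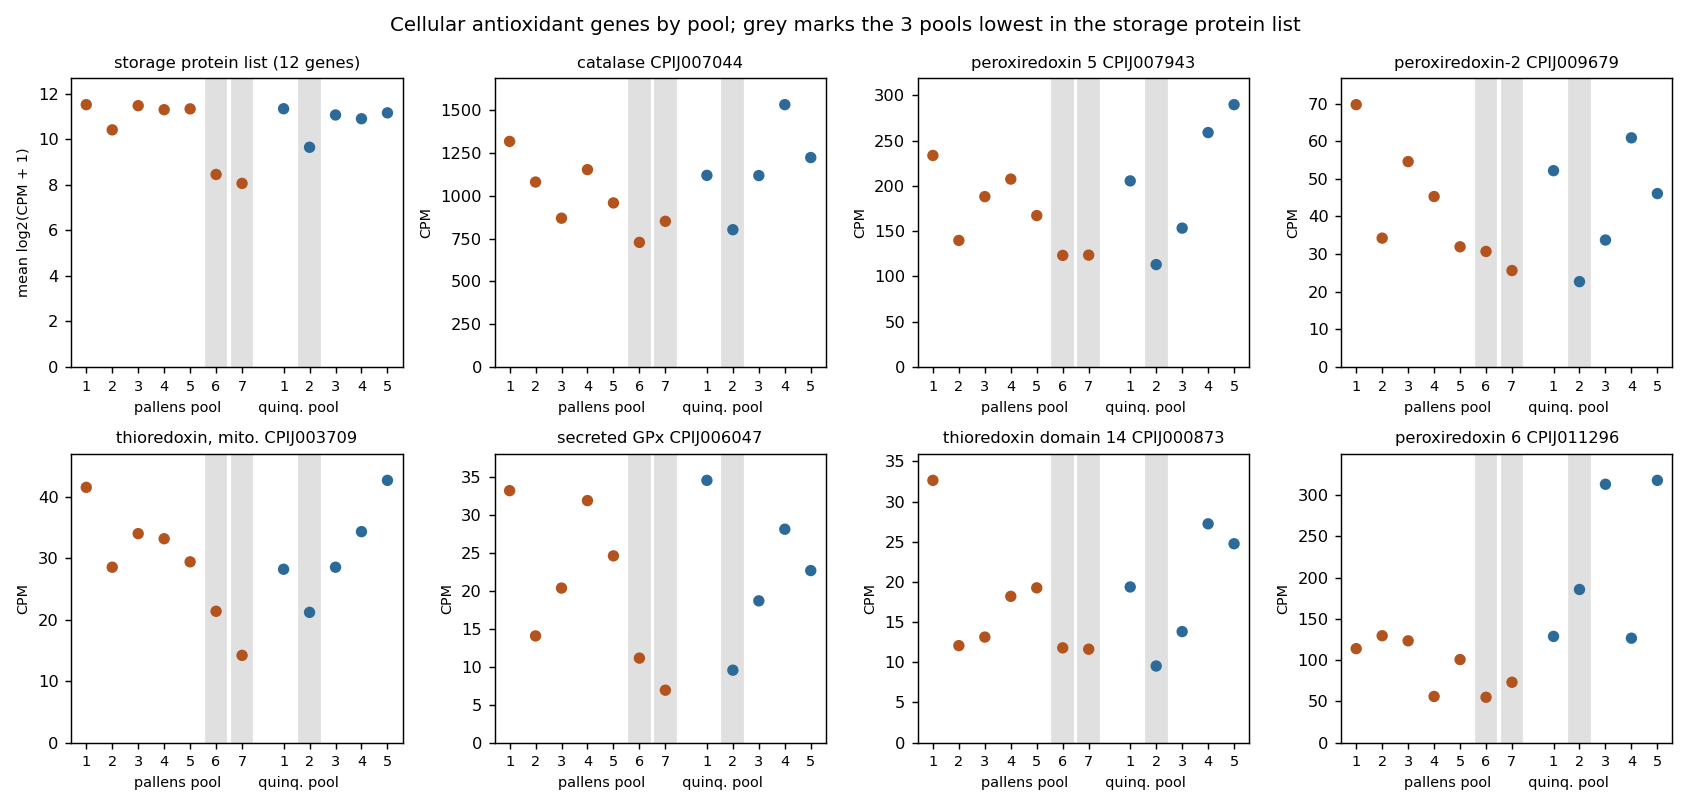
Mean log2(CPM + 1) of the 12 storage protein genes (top left) and CPM of 7 antioxidant genes in each pool, with pallens pools in orange on the left and quinquefasciatus pools in blue on the right of each panel; grey marks the 3 pools lowest in storage proteins. In 6 of the genes the grey pools hold the lowest values, as for catalase with 728 CPM in pallens 6. Peroxiredoxin 6 (CPIJ011296) instead has most of its high values in quinquefasciatus. The 6 were drawn for this order, which 6 of the 29 members tested had. By library totals alone catalase, peroxiredoxin-2 and thioredoxin domain containing 14 lose it.

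Of the members, the heme peroxidases varied most among pools that share a label. Of 10 models 8 were tested and 2, a chorion peroxidase (CPIJ007711-RA) and a peroxidasin (CPIJ016744-RA), had at most 4 reads in any pallens pool and at most 2 in any quinquefasciatus pool. The files annotate iron ion binding for all 10, and for catalase as the only other member. The spread within a subspecies was above that of 90% of genes of like level in 4 of the 8, against 3 of the 21 other members tested. Among the 34 tested redox partners it was so in 8. The median of this percentile was 84.6 for the heme peroxidases, 36.9 for the other members and 69.0 for the redox partners, so wide spread was not particular to heme peroxidases.

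**Figure D4:**
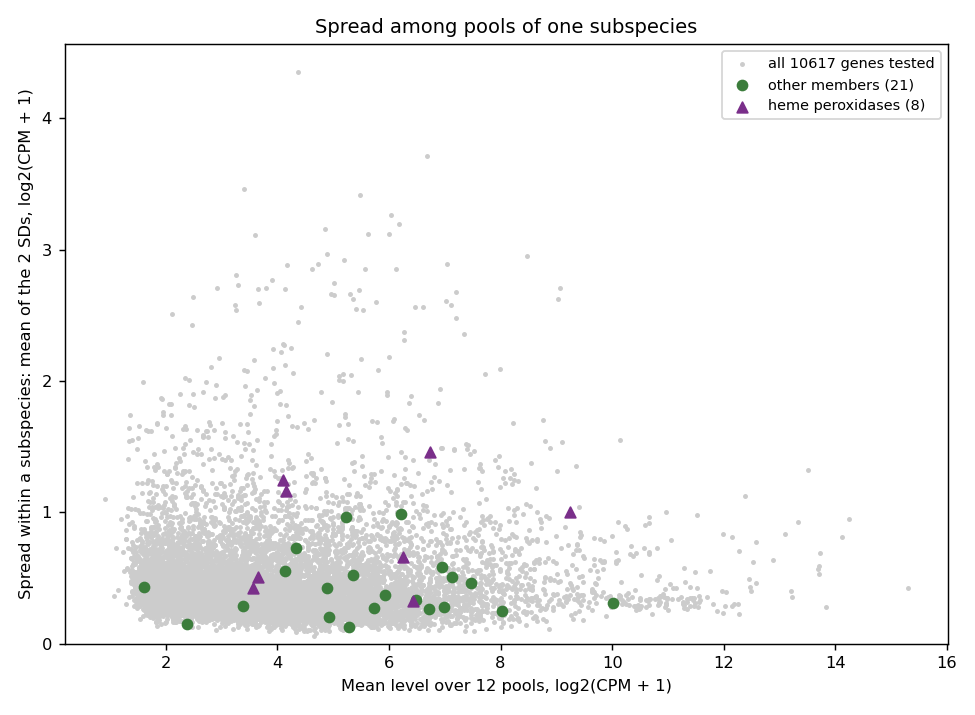
Spread within a subspecies (mean of the SD over 7 pallens pools and the SD over 5 quinquefasciatus pools, log2(CPM + 1)) against mean level over the 12 pools; grey points are all genes tested, purple triangles the 8 heme peroxidases and green circles the 21 other members tested. At the top of the members is chorion peroxidase CPIJ018105, and at the bottom glutaredoxin CPIJ005830.

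The peroxidase CPIJ017588-RA (supercont3.999, 21873 to 24884) had the largest change among members. It was covered by reads over a median of 39.2% of its length, and at most 60.7%. It had 14.1, 204, 19.1, 20.4, 116, 18.7 and 8.27 CPM in pallens 1 to 7, against 7.86, 8.89, 7.71, 11.6 and 2.63 CPM in quinquefasciatus 1 to 5. Pallens 2 and pallens 5 stood far above all other pools, and among the remaining pallens pools only pallens 7 fell within the quinquefasciatus range. The log2 change was 2.87 ± 0.85 (unadjusted p = 0.00492, adjusted p = 0.172), with an unadjusted 95% interval from 1.04 to 4.71. DESeq2 called it with an adjusted p of 0.00698, and over all alternatives the adjusted p ran from 0.00698 to 0.525. Without pallens 2 and pallens 5 the log2 change was 1.05 (adjusted p = 0.324).

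The same 2 pools were highest for the chorion peroxidase CPIJ018105-RA (supercont3.1091, 38852 to 42498). It had 46.2, 936, 100.9, 51.8, 548, 143 and 101.1 CPM in pallens 1 to 7, against 69.6, 176, 130.4, 30.4 and 21.3 CPM in quinquefasciatus 1 to 5. The other pallens pools lay inside the quinquefasciatus range. The log2 change was 1.69 ± 0.85 (adjusted p = 0.414), and 0.05 without pallens 2 and pallens 5. The peroxidase CPIJ007579-RA had 5.74, 82.3, 7.47, 19.9, 87.7, 4.45 and 6.90 CPM in pallens 1 to 7, against 21.9, 17.8, 23.1, 22.7 and 5.79 CPM in quinquefasciatus 1 to 5. Its log2 change was 0.74 ± 0.78 (adjusted p = 0.700) and took the opposite sign, -1.03, without these pools. Reads covered at most 57.1% of this model in any pool. With CPIJ017588 it is 1 of 2 members annotated to an external encapsulating structure. Both are also annotated to phagocytosis, as is peroxiredoxin-2 (CPIJ009679). An oxidase/peroxidase, CPIJ012082-RA, was also highest in pallens 2 (170.5 CPM) and pallens 5 (127 CPM), next to 121 CPM in quinquefasciatus 3, an order that is lost by library totals alone. The last 2 of these genes were chosen after their values were seen.

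Thus 4 of the 8 heme peroxidases tested had their highest values in pallens 2 and pallens 5, the pools highest in cuticle proteins, against 1 of the 21 other members (glutaredoxin 2), 7.04% of all genes tested and 38 of the 70 cuticle protein genes. By library totals alone it was 3 of 8, without CPIJ012082. Below pallens 2 and pallens 5, none of the 4 genes followed the order of the cuticle list. Pallens 3, next in that list (5.38), had 19.1 CPM of CPIJ017588, 100.9 CPM of CPIJ018105, 7.47 CPM of CPIJ007579 and 43.5 CPM of CPIJ012082. Quinquefasciatus 3, with a cuticle list mean of 3.42, had 7.71, 130.4, 23.1 and 121 CPM of these genes in turn. The part of the cuticle list in these values was not tested, and the pools were ordered by that list after the data were seen.

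Of 3 oxidases in the list of redox partners that make hydrogen peroxide or its precursor superoxide, 2 were tested, and both were highest in the same 2 pools. Dual oxidase 1 (CPIJ003117-RA), which releases hydrogen peroxide outside the cell, had 19.8, 92.8, 15.7, 16.5, 77.8, 15.3 and 18.1 CPM in pallens 1 to 7, against 14.4, 20.1, 36.6, 16.5 and 11.3 CPM in quinquefasciatus 1 to 5. NADPH oxidase (CPIJ002594-RA), which makes superoxide, had 16.2 CPM in pallens 2 and 18.0 CPM in pallens 5, against 2.17 to 3.35 CPM in the other pallens pools and 1.58 to 5.38 CPM in quinquefasciatus. A second NADPH oxidase model (CPIJ010332-RA), with too few reads to be tested, did not share this order: it had 1.097 CPM in pallens 2 and 2.28 CPM in pallens 5, against 1.18 to 3.34 CPM in the other pallens pools and 1.06 to 2.63 CPM in quinquefasciatus. Neither tested oxidase was called, with log2 changes of 0.88 ± 0.55 (adjusted p = 0.500) and 1.05 ± 0.63 (adjusted p = 0.484), and both changes were negative without pallens 2 and pallens 5, at -0.22 and -0.25.

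**Figure D5:**
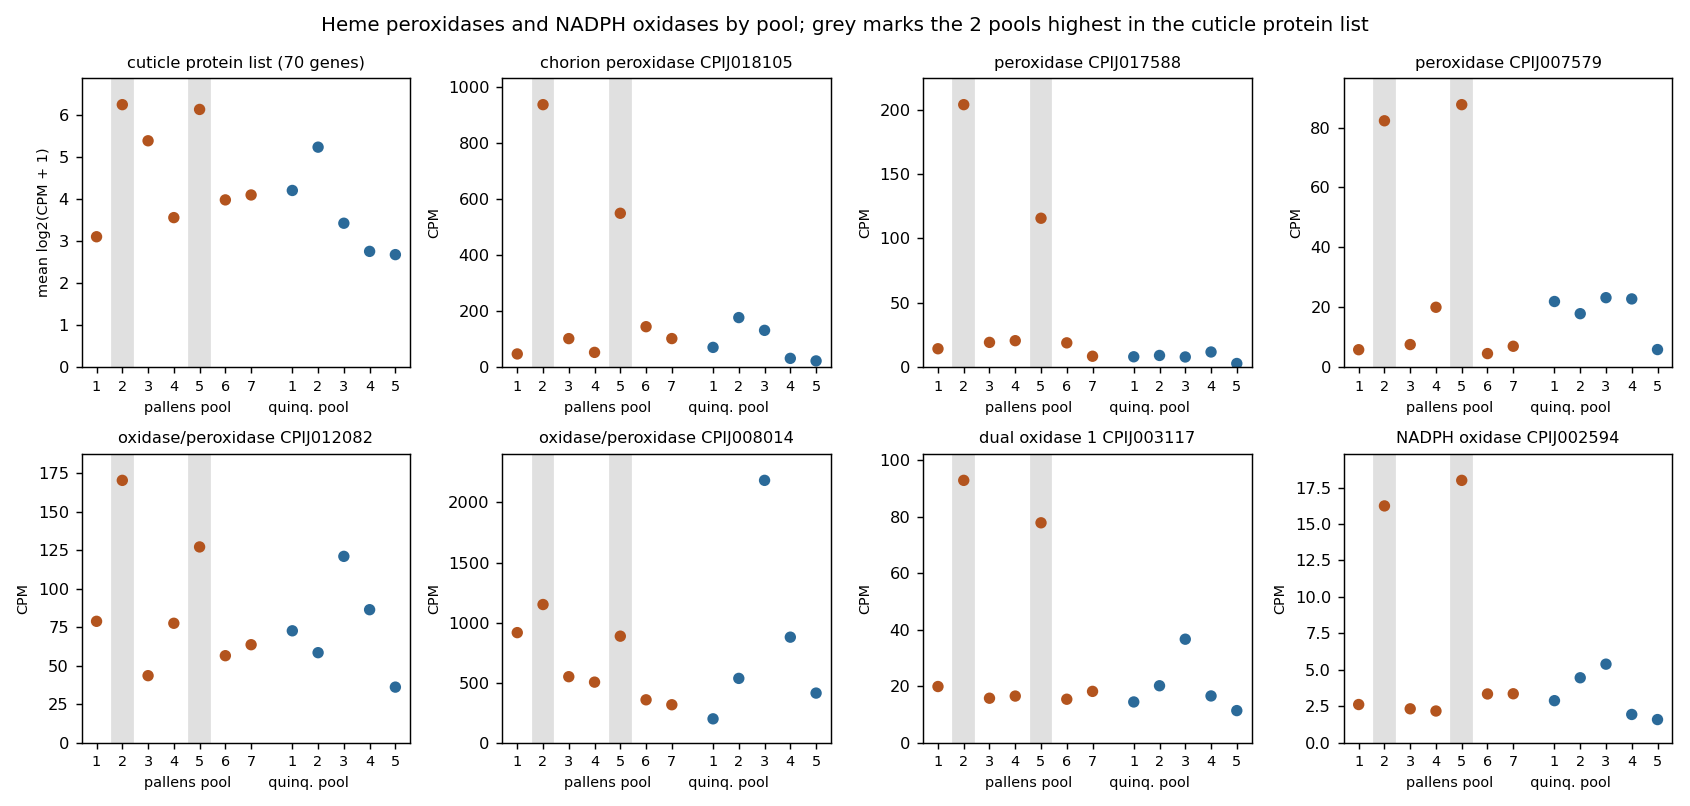
Mean log2(CPM + 1) of 70 cuticle protein genes (top left) and CPM of 5 heme peroxidases, dual oxidase 1 and NADPH oxidase in each pool, with pallens pools in orange on the left and quinquefasciatus pools in blue on the right of each panel; grey marks pallens 2 and pallens 5. Both grey pools stand above all others in 6 of these 7 genes (5 by library totals alone). Oxidase/peroxidase CPIJ008014 instead has its highest value, 2184 CPM, in quinquefasciatus 3. The panels were chosen after the values were seen. Over all heme peroxidases tested 4 of 8 had this order, and those not drawn lack it.

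The most abundant heme peroxidase, the oxidase/peroxidase CPIJ008014-RA (supercont3.191, 135212 to 146333), did not follow this order. It had 916, 1150.0, 549, 504, 886, 356 and 315 CPM in pallens 1 to 7, against 198, 535, 2184, 878 and 412 CPM in quinquefasciatus 1 to 5. Quinquefasciatus 3 alone was above 1150.0 CPM. Its change was -0.33 ± 0.52 on the log2 scale (adjusted p = 0.804), and 0.40 without quinquefasciatus 3. The chorion peroxidase CPIJ001764-RA was even, between 54.2 and 118 CPM in pallens and 76.6 and 124 CPM in quinquefasciatus, with a log2 change of -0.22 ± 0.21 (adjusted p = 0.667). The thyroid peroxidase-like CPIJ016742-RA and the chorion peroxidase CPIJ005949-RA were low, at 11.8 ± 3.59 and 10.9 ± 3.35 CPM in pallens and 10.5 ± 3.45 and 14.03 ± 5.14 CPM in quinquefasciatus. CPIJ016742 lies on supercont3.811 between a superoxide dismutase model, 12.8 kb away, and the peroxidasin, 7.5 kb away, neither of which had enough reads to be tested.

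A list of 45 redox partners took in the genes that supply NADPH or glutathione, bind iron, make or sense peroxide, or exchange disulfides. Of these 34 were tested and none was called by edgeR; 2 had an unadjusted p under 0.05, or 5.88% against 13% of all genes. Log2 changes were positive in 12 and negative in 22, with a median of -0.09 against 0.02 for all genes. DESeq2 called none; limma-voom and both limma fits on log2 RPKM called 1, a ferritin. Heme oxygenase 1 (CPIJ007246-RA), which breaks down heme, had a median of 6.80 CPM in pallens, from 4.98 to 9.40, and 13.2, 18.4, 11.8, 7.72 and 5.002 CPM in quinquefasciatus 1 to 5, with a log2 change of -0.73 ± 0.28 (adjusted p = 0.300). That ferritin, a heavy chain (CPIJ014287-RA), of the family that stores iron, had 8.67 to 23.0 CPM in pallens, against 0, 0.212, 0.179, 0.214 and 14.2 CPM in quinquefasciatus 1 to 5. Quinquefasciatus 5 thus lay inside the pallens range, while the other 4 quinquefasciatus pools had 0 or 1 read each. With all pools its adjusted p was 0.356, and without quinquefasciatus 5 it was called (adjusted p = 8.21e-05). A second ferritin heavy chain (CPIJ014068-RA) had a like order, with 7.46 to 32.6 CPM in pallens. In quinquefasciatus 1 to 5 it had 0.192, 0, 0.897, 0 and 32.6 CPM (adjusted p = 0.587). Reads covered at most 44.7% of CPIJ014287 and 51.1% of CPIJ014068 in any pool, so both were read only in part.

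Transferrin (CPIJ013339-RA), an iron carrier of insect blood, had 76.4 CPM in pallens 2 and 60.6 CPM in pallens 5, against 9.53 to 30.7 CPM in the other pallens pools and 7.37 to 30.7 CPM in quinquefasciatus. 2 other transferrin models were low in pallens 2. CPIJ015785-RA had its lowest values in pallens 2 (59.0 CPM) and pallens 5 (104 CPM). It had 149.9 to 341 CPM in the other pallens pools and 168 to 389.8 CPM in quinquefasciatus. CPIJ018889-RA was lowest in pallens 2 (14.5 CPM). A lactotransferrin model (CPIJ000114-RA) instead had 56.6 CPM in pallens 2, its highest pallens value, and 42.3 CPM in pallens 5. CPIJ013339 was 1 of 4 of the 34 redox partners with the highest values in both pools, or 11.8%, against 7.04% of all genes tested. The others were dual oxidase 1, NADPH oxidase and glucose-6-phosphate 1-dehydrogenase, which makes NADPH. The redox partners named were chosen after their values were seen. The abundant ferritin chains had log2 changes of -0.02 ± 0.36 for the light chain (CPIJ004069-RA) and -0.30 ± 0.25 for the heavy chain-like protein (CPIJ004070-RA), with adjusted p of 0.989 and 0.621.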

How the data were processed

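RNA-seq libraries of 7 pallens and 5 quinquefasciatus pools, each of 30 larvae, were grouped by the subspecies in the labels. Per the file headers, the tables that the authors deposited give per gene model its count of unique reads, length, percent covered by reads and RPKM, and this RPKM equals the count over length and library total. Per the labels' protocols the libraries are poly(A)-selected and unstranded. Not given in the sources used here are which aligner, counter and genome build were used. Genes without reads are left out of the tables and were set to 0. Lengths were multiples of 3 in 89.2% of models, so they are mostly coding lengths. Among members the share was lower, 73.8% (31 of 42). Catalase (1727 bases), peroxiredoxin 5 (931 bases) and peroxiredoxin 6 CPIJ011296 (826 bases) were among the exceptions, so their RPKM may rest on more than coding length. The RefSeq gene table used held 0 of the identifiers, so no sequence is shown.

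Counts were tested with edgeR 4.0.16 in R 4.3.3 (TMM, filterByExpr, robust quasi-likelihood fit), pallens minus quinquefasciatus, over 10617 genes, with Benjamini-Hochberg adjustment and a threshold of 0.05. The biological coefficient of variation was 42%. SE is the log2 change over the square root of F, and intervals use edgeR's total degrees of freedom. Spread was ranked among genes in 20 bins of mean level. A simulation of this comparison with 10423 genes recovered 28 of the 100 genes set to change 2-fold. It recovered 85 of the 100 set to change 4-fold and made 117 calls, 4 of them false. Counts were drawn independently for each gene, without differences shared by whole pools. Alternatives were RLE and upper quartile scaling, no filter, at least 1 CPM in at least 5 libraries, DESeq2 1.42.0, limma 3.58.1 (voom, and trend on log2 RPKM with pseudocounts of 1 and 0.1), a threshold of 0.1 and each library left out. Named members were, in each role, the 3 with the highest RPKM, the 2 with the smallest p and the 1 with the largest spread, those called or without overlap, and neighbours within 50 kb. Members and lists were chosen with earlier results of these data known.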

Additional observations from a re-analysis of the deposited data

Results flagged for a closer look

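In 3 of 70 groups of values examined, 1 pool lay further from the others than Dixon's 95% limit; chance alone gives about 1 in 20. Thioredoxin reductase 1 (CPIJ005552) had 82.4 CPM in quinquefasciatus 2, against 131 to 144 CPM in the other quinquefasciatus pools. The peroxidase CPIJ007579 had 5.79 CPM in quinquefasciatus 5, against 17.8 to 23.1 CPM in the others. The ferritin heavy chain CPIJ014287 had 14.2 CPM in quinquefasciatus 5, against 0 to 0.214 CPM in the others. The cause of these values was not tested.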

How the results depend on the processing

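No paired analysis was possible because the labels number no replicates; the numbers used follow accession order only. The count over all genes, 57, was 295 with DESeq2, 92 with limma-voom, 118 and 110 with limma on log2(RPKM + 1) and log2(RPKM + 0.1), 143 at an adjusted p under 0.1, 21 with the cuticle list mean as a covariate, 3 without pallens 2 and 5, 366 without pallens 1 and quinquefasciatus 5, and 9 to 229 with single libraries left out. Members called were 2 with DESeq2 and 0 under every other alternative. Redox partners called were 1 with limma-voom and with both RPKM fits, 3 without pallens 1 and quinquefasciatus 5, and 0 to 2 with single libraries left out, the 2 being without quinquefasciatus 5. The settings that drop 2 libraries and both covariates were chosen after seeing the data.

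Among 35 genes under up to 24 alternatives each, 18 kept the sign of their log2 change throughout and 17 did not. Without a filter the changes of CPIJ005552 and CPIJ012668 were -0.014 and -0.003, and with the filter at 1 CPM that of CPIJ005552 was -0.001. That of CPIJ007579 was -0.119 with limma-voom and -0.053 on log2(RPKM + 0.1), where CPIJ008014 had 0.031, and 0.029 on log2(RPKM + 1). Without pallens 2 and 5 the changes were -1.033 for CPIJ007579, 0.061 for CPIJ009679, -0.237 for CPIJ012082, -0.04 for CPIJ012668, -0.047 for CPIJ016742, -0.251 for CPIJ002594 and -0.223 for CPIJ003117. Without pallens 1 and quinquefasciatus 5 that of CPIJ005552 was -0.011. With the cuticle covariate they were -0.154 (CPIJ000146), 0.153 (CPIJ000873), 0.038 (CPIJ003709), -0.021 (CPIJ003832), 0.029 (CPIJ006047), -0.798 (CPIJ007579), 0.188 (CPIJ009679), -0.055 (CPIJ012082), -0.002 (CPIJ012668), 0.064 (CPIJ016031), -0.166 (CPIJ016742), -0.081 (CPIJ002594) and -0.062 (CPIJ003117). With the storage covariate they were 0.007 (CPIJ003709), 0.016 (CPIJ006047) and 0.083 (CPIJ009679). The cause was not tested.

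With single libraries left out, the log2 changes that took both signs ran from -0.399 to 0.006 for CPIJ000873, from -0.078 to 0.262 for CPIJ003399, from -0.213 to 0.037 for CPIJ003709, from -0.11 to 0.063 for CPIJ005552, from -0.362 to 0.035 for CPIJ006047, from -0.048 to 0.173 for CPIJ006048, from -0.589 to 0.399 for CPIJ008014, from -0.219 to 0.107 for CPIJ009679, from -0.006 to 0.474 for CPIJ012082, from -0.044 to 0.097 for CPIJ012668 and from -0.18 to 0.001 for CPIJ016031. In simulated data 28 of 100 genes changed 2-fold were recovered, so differences of that size in members can often be missed. The simulated counts held no differences shared by whole pools, so these rates need not hold for the members.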
